A study of Mus musculus with 47 samples.

Results

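The regions described here are the sites in liver tumours where Myc was called in every tumour library and where normal liver already carried H3K4me3. Joining the Myc peaks of the 6 tumours with Myc on, with 1 bp of overlap as the limit, gave 62815 regions, of which 38418 had a peak in 2 or more tumours and 13652 had one in all 6. Of those 13652 constant regions, 9063 (66.4%) overlapped an H3K4me3 region present in at least 2 of the 4 control livers, and these 9063 are called the members. Of the other constant regions, 2405 overlapped control H3K27ac but no control H3K4me3, and 2184 overlapped neither mark. The members were thus selected on measured values, the presence of Myc peaks in on tumours and of H3K4me3 peaks in control liver, and those values are given below as a description, without a test.

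Myc is a transcription factor that binds DNA as a dimer with Max, with a preference for E-box sequences, and it is found mostly at promoters that are already open. H3K4me3, trimethylated lysine 4 of histone H3, marks the promoters of active or poised genes, and H3K27ac, acetylated lysine 27, marks active promoters and enhancers. RNA polymerase II (RNAPII) transcribes protein-coding genes and often pauses just downstream of their start sites.

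All mice were of the FVB strain. The tumours combined LAPtTA, a transactivator specific to liver, with tet-Myc, the tetracycline-regulated transgene that it drives, induced before birth. Expression was switched off by food with doxycycline for 16 h before the off samples were taken. Control liver 1 carried tet-Myc that was not expressed, control liver 2 carried LAPtTA, and control livers 3 and 4 were wild type. Myc was mapped in 4 control livers, 6 tumours with Myc on and 3 with Myc off, and RNAPII, H3K4me3 and H3K27ac each in 4, 4 and 3. The protocol names a wild-type and a V394D form of tet-Myc, and the labels do not say which form each tumour expressed. Nor do they say whether each library is a different mouse, so a p-value here reflects the scatter of these libraries only, part of which may be technical. Ages were not given. Fewer cells of a type and less binding per cell cannot be told apart in tissue samples.

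Each library was 1 list of peaks without read numbers. Sequencing depth is therefore unknown, and a site without a peak means only that none was called. On-tumour Myc lists held 19269 to 55763 peaks. Control livers 1 to 3 held 1002 to 2816 Myc peaks, control liver 4 stood apart with 8499, and the 3 off tumours held 98, 331 and 239. The peaks of control livers 1 to 3 and of the off tumours were narrow, with medians of 77 to 132 bp against 428 to 762 bp in on tumours and 444 bp in control liver 4. Positions are in mm9, counted from 1, and no gene is named and no sequence shown because the annotation at hand was of another build.

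The median length of the members was 2113 bp, from 533 to 12484 bp, against 1810 bp for the constant Myc sites with H3K27ac alone in liver and 1408.5 bp for those with neither mark. Of the members, 98.8% contained bases under the peaks of all 6 tumours, a shared core with a median of 517 bp. In 54.3% every tumour had a single peak. Members lay on every autosome and on X, with most (796) on chromosome 11. On X, 144 constant regions were members and 36 were not (80% members), whereas on chromosome 6 the share was 59.4%.

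Seen from the liver, a majority of the H3K4me3 regions held a member. Of 14952 control H3K4me3 regions, 8539 (57.1%) held at least 1 member, 8061 of them exactly 1, 433 held 2 and 45 held 3 or more. A further 4238 held only a less constant Myc region, 703 a Myc peak of a single tumour, and 1472 none. H3K4me3 regions with a member were longer, at a median of 3491 bp against 2541 bp where no tumour had Myc, and the share holding a member was 39.4%, 58.9%, 62.8% and 67.3% from the shortest to the longest of 4 equal groups of regions. A long region can hold a site more easily, and its part in these shares was not tested.

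RNAPII had a peak in 90.5% to 93.6% of the liver H3K4me3 regions with a member in the 4 control livers, in 64.7% to 72.9% of those with only a less constant Myc region, and in 25.8% to 33.8% of those without tumour Myc. H3K27ac was present in 67.0% to 91.3%, 41.6% to 69.3% and 13.7% to 26.8% of the same 3 groups. The RNAPII ranges did not overlap, and the H3K27ac ranges of the first 2 groups did. The 3 groups also differed in H3K4me3 itself, with 93.1%, 77.5% and 39.4% of their regions present in all 4 control livers. Their median lengths were 3491, 2895 and 2541 bp. The part of these differences in the RNAPII and H3K27ac shares was not tested.

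Myc sat near the middle of these regions. The centre of the shared core lay inside the H3K4me3 region for 99.2% of members, within 1000 bp of its centre for 68.5%, and in its middle 50% for 67.3%, at a median distance of 606 bp. The H3K4me3 lists also mark inner blocks within each peak, the stretches of stronger signal. Of the core centres under a peak, 68.9% to 88.8% fell in an inner block in control livers, 83.2% to 91.5% in on tumours and 94.1% to 95.3% in off tumours. The inner blocks made up, on average, 45.8% to 67.2% of the length of the peaks at members in the 11 lists, less than the share of centres in every list.

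**Figure D1:**
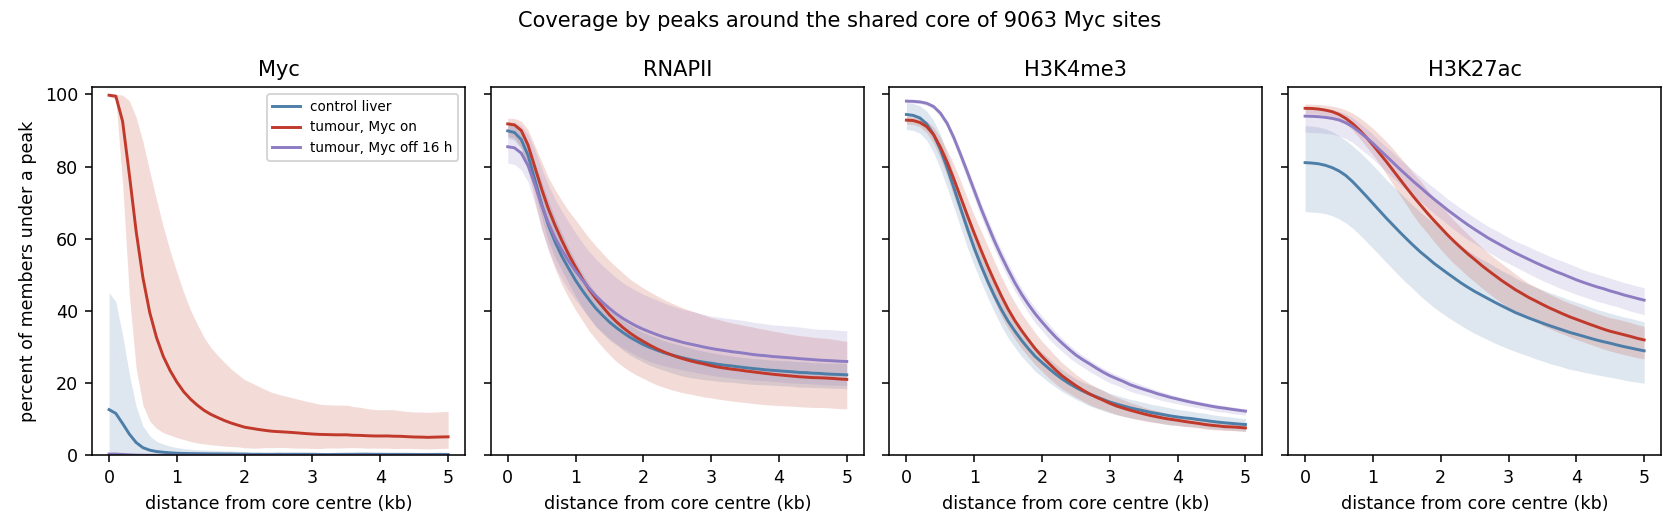
Percent of members lying under a peak (y axis) at each distance from the centre of the shared Myc core (x axis, kb, both sides averaged), with the mean of each group as a line and the range over libraries as a band. Myc falls within 1 kb, H3K4me3 and H3K27ac are wider, and in off tumours both histone marks reach farther from the core than in on tumours, for H3K27ac 43.0% against 32% at 5 kb.

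Tumour Myc peaks at members had high scores. The score is the authors' own and its scale is not known, so each peak was given its percentile within its own list, and a member took its best peak. The mean percentile of members in tumours 1 to 6 was 64.4, 61.3, 73.6, 83.1, 79.9 and 85.7, and that of the other constant Myc regions was 49.0, 60.2, 54.4, 70.4, 69.9 and 84.1. Members were higher in 6 of 6 tumours, by 10.0 ± 7.38 percentile points (SD, n = 6), with a two-sided exact sign-flip p of 0.03125, the smallest that 6 tumours allow. The difference was small in tumours 2 and 6, at 1.04 and 1.65 points, and between 10.0 and 19.2 in the other 4. A longer region can hold a higher best peak, and members were longer than the other constant regions (medians of 2113 bp against 1810 and 1408.5 bp). The part of length in this difference was not tested.

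The highest-scoring peaks were mostly at members. Of the 1000 top-scoring Myc peaks of each tumour, 89.2%, 71.4%, 93.8%, 94.4%, 86.5% and 76.1% lay at a member, whereas members took 17.4% to 56.9% of all peaks of a list. The ranking of members was shared between tumours, with Spearman correlations across members of 0.637 to 0.918 over 15 pairs of tumours. These are correlations across regions within the same list pairs, and regions are not independent replicates. A core of 2572 members (28.4%) was above percentile 75 in all 6 tumours, and none was at or below percentile 25 in all 6. The rule asks for a peak in all 6 lists, which can itself favour high-scoring peaks. The shares of top peaks and these counts are therefore a description.

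The 5 members with the highest median percentile were at or above percentile 99.6 in every tumour. The first, chr11:59857992-59860883, had Myc scores of 368, 300, 419, 550, 902 and 917 in tumours 1 to 6, and of 10.8, 10.3, 9.47 and 72.2 in the 4 control livers. RNAPII covered 46.3% to 91.0% of it in control livers, 45.5% to 88.4% in on tumours and 0%, 38.8% and 35.0% in off tumours, so that the off tumours lay below all others. The second, chr11:6423147-6430787, scored 283 to 963 in tumours and was the only member with a Myc peak in all 4 control livers and all 3 off tumours.

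At 2 of the other 3 strongest members the on tumours lay above all control livers in RNAPII coverage. At chr17:35137469-35140548 the RNAPII coverage was 24.2%, 20.6%, 35.5% and 35.6% in control livers, 100%, 76.2%, 100% and 100% in on tumours, and 32.4%, 18.7% and 45.1% in off tumours. The on tumours lay above both other groups, which overlapped. At chr13:38749105-38751351 the control and on-tumour ranges were 43.1% to 76.9% and 79.4% to 98.3%, and off tumours had 44.1%, 54.5% and 96.8%. At chr1:88251178-88258469 control livers ranged from 22.2% to 100%, on tumours from 86.7% to 100%, and off tumours had 27%, 24.8% and 100%. In both of these sites off tumour 3 was as high as the on tumours.

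The longest members were not the strongest. chr11:120088703-120101186, with 12484 bp, had a median percentile of 86.9 and no Myc peak in any control liver. chr19:5839395-5850751 had a median percentile of 77.6, and Myc covered 22.4%, 25.7%, 8.66% and 63.2% of it in the 4 control livers and none of it in the 3 off tumours, while RNAPII covered all of it in all 11 libraries. The third, chr8:11000982-11012307, had a median percentile of 86.1 and was under H3K27ac from end to end in all 11 libraries.

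Some members carried Myc in normal liver. A Myc peak was called at 633 (6.98%), 669 (7.38%) and 394 (4.35%) members in control livers 1 to 3 and at 5053 (55.8%) in control liver 4. At the constant sites with H3K27ac but no H3K4me3 the shares were 6.53%, 11.39%, 2.04% and 17.09%. By 1 bp of overlap, members were thus close to those sites in control liver 1, below them in control liver 2 and above them in control livers 3 and 4. The sites with neither mark had 0.549% to 3.85%, below the members in every control liver by this measure. With at least 10% of a site covered, members had 0.783%, 1.58%, 0.397% and 52.8% in control livers 1 to 4. The sites with H3K27ac alone had 2.25%, 4.91%, 0.873% and 15.6%, above the members in control livers 1 to 3. In control liver 2 the sites with neither mark, at 1.69%, were also above the members. Members were the longest class, and the part of length was not tested. In all, 5252 members had Myc in 1 or more control livers, but 1210 without control liver 4, and 107 had it in all 4. Control Myc peaks fell on members at shares of 37.6%, 27.3%, 48.9% and 66.7% of each list. Among the members with a peak in all 4 control livers, the 3 highest scoring in tumours were the 2 strongest members above and chr11:101175757-101178612, where Myc covered 2.84% to 24.4% of the site in control livers and 30.8% to 100% in on tumours.

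After 16 h without tet-Myc almost no member kept a called Myc peak. Of the 9063 members, 34 (0.375%), 195 (2.15%) and 132 (1.46%) had one in off tumours 1 to 3, 252 in at least 1 and 28 in all 3. Of the Myc peaks still called, 42 of 98, 245 of 331 and 174 of 239 lay at members, a majority in off tumours 2 and 3 but not in off tumour 1. Of the 2405 constant sites at control H3K27ac without H3K4me3, 1, 2 and 0 had a peak in the same lists. The 252 members with a peak left had a median tumour percentile of 97.4 against 78.7 for the rest, and 88.5% of them had a Myc peak in control liver 4 against 54.8%. The 252 were also longer, at a median of 2647.5 bp against 2096 bp, and the part of length was not tested. Since these 252 were picked by their peaks in off tumours, these values are a description. Within the off lists, peaks at members had mean score percentiles of 36.5, 43.7 and 44.2 in off tumours 1 to 3. Peaks elsewhere had higher ones, at 61.0, 68.4 and 66.4.

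The 3 named members with a peak in all 3 off tumours kept only a narrow one. At chr11:77988990-77998969 Myc covered 36% to 100% of the site in on tumours and 0.601%, 1.62% and 1.08% in off tumours. At chr7:25668670-25674229 the values were 34.9% to 100% and 1.60%, 0.989% and 2.30%. At chr11:6423147-6430787 they were 34.9% to 100% and 1.01%, 6.61% and 3.63%. RNAPII stayed called over 75.8% to 100% of the 3 sites in off tumours.

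**Figure D2:**
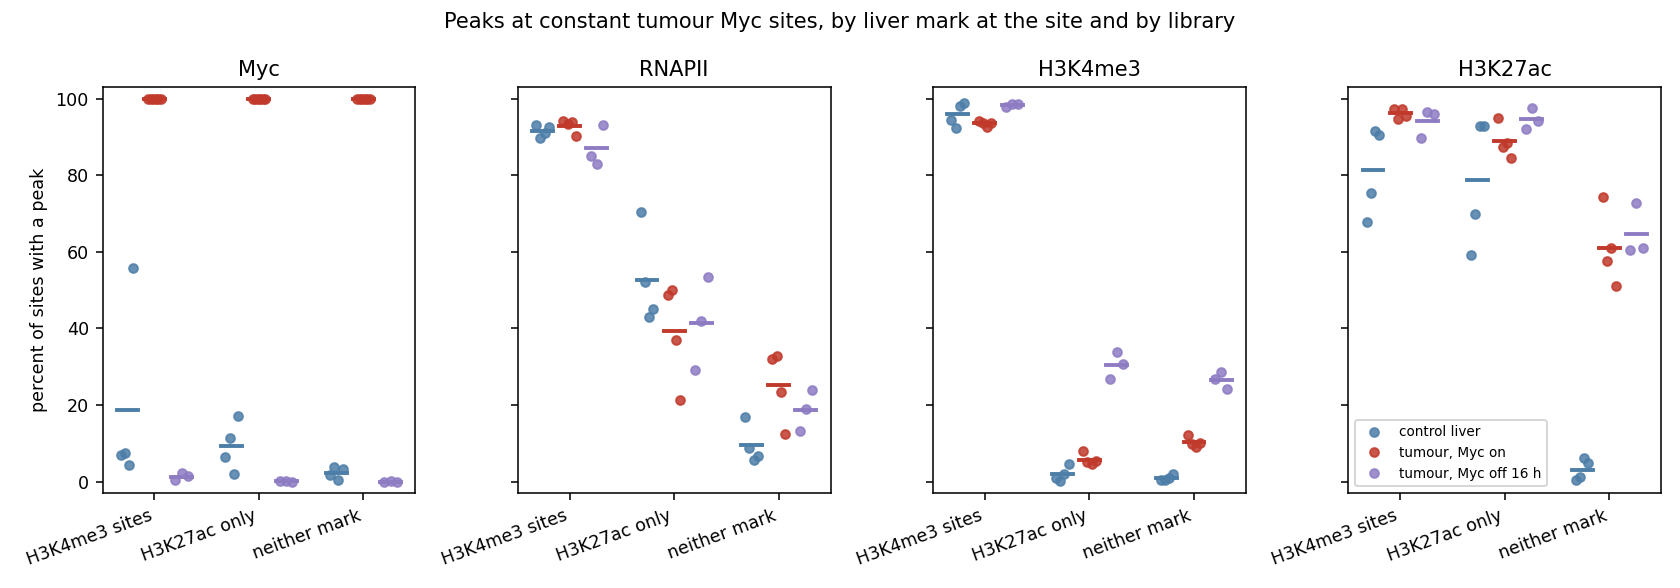
Percent of constant tumour Myc sites with a peak (y axis) for each antibody, split by the mark that control liver carried at the site: H3K4me3 (the 9063 members), H3K27ac without H3K4me3, or neither. Each point is a library and each bar the mean of a group. Members have RNAPII in 83.1% to 94.1% of cases in all 11 libraries, whereas sites without liver H3K4me3 range lower, and Myc is nearly absent in off tumours.

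Polymerase and H3K27ac, which the choice of members did not use, were present at most members in every group. A RNAPII peak was called at 93.1%, 89.7%, 90.9% and 92.6% of members in the 4 control livers, at 94.1%, 93.4%, 93.8% and 90.2% in on tumours, and at 85%, 83.1% and 93.1% in off tumours. The control and on-tumour values overlapped, and 2 of the 3 off tumours lay below both. With the lists cut to an equal length by width the order turned, with 81.1% to 85% in off tumours, above all 4 control livers at 56.2% to 77.8% and among the on tumours at 67.5% to 88.8%. The common length of 11916 peaks was that of off tumour 1, which thus lost none. Control liver 1, with 20931 peaks, went from 93.1% to 56.2%. Longer lists lost more peaks, so this turn cannot be told apart from an effect of the cut. A H3K27ac peak was called at 67.9%, 75.4%, 91.6% and 90.7% in control livers, at 97.4%, 94.8%, 97.4% and 95.4% in on tumours, and at 89.8%, 96.7% and 96.0% in off tumours. All 4 on tumours lay above all 4 control livers, and the 2 low control livers were the ones with a transgene. These also had the shortest H3K27ac lists, with 9696 and 11202 peaks, so transgene and list length cannot be told apart.

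The difference in mean H3K27ac share between on tumours and control livers was 4.71 percentage points larger at members than at the constant sites with H3K27ac but no H3K4me3, close to the pooled SD of 4.53 points between libraries. Against wild-type livers alone it was 9.15 points larger. That class was chosen by control H3K27ac, so no test was made. RNAPII was called at those other sites in 43.0% to 70.4% of cases in control livers and 21.4% to 50.1% in on tumours, below the members in every library.

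Combining both marks, with a state called from a peak in at least 2 libraries of a group, 8006 members (88.3%) had RNAPII and H3K27ac in control liver, 8510 (93.9%) in on tumours and 7814 (86.2%) in off tumours. Over the 38418 Myc regions of 2 or more tumours the shares were 42.8%, 41.1% and 38.5%. Members with neither numbered 393, 89 and 303 (4.34%, 0.982% and 3.34%, against 38.3%, 29.3% and 23.6%). Both marks were present in all 3 groups at 7275 members, and at 29.1% of all Myc regions. Of the 393 members with neither in control liver, 268 (68.2%, against 9.77% of all Myc regions with neither) had both in on tumours, and 66 of these were back to neither in off tumours. Of the 8510 with both in on tumours, 587 (6.90%, against 15.6% of all Myc regions with both) kept H3K27ac alone in off tumours and 80 kept RNAPII alone. RNAPII was called in all 11 libraries at 6712 members (74.1%), against 24.1% of the 38418 Myc regions of 2 or more tumours, and H3K27ac at 5527 (61.0%), against 27.3%. No library had RNAPII at 91 members (1.00%, against 31.2%) or H3K27ac at 40 (0.441%, against 13.2%).

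**Figure D3:**
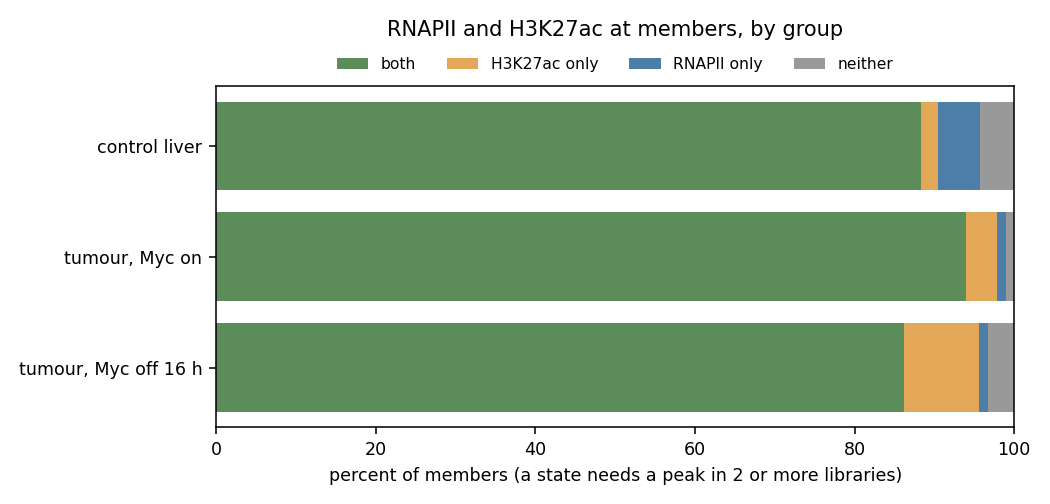
Percent of the 9063 members (x axis) with RNAPII and H3K27ac, with one of them or with neither, for each group (rows). The share with both is 88.3% in control liver, 93.9% in on tumours and 86.2% in off tumours, and H3K27ac alone grows from 3.97% to 9.30% between on and off tumours.

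Changes of RNAPII between control liver and tumour were tested with limma on the percent of each region covered by peaks, first over merged RNAPII regions and then over the Myc regions themselves. Of 16931 RNAPII regions tested, 3.89% were higher and 9.1% lower in on tumours at an adjusted p below 0.05. At members, 356 of 7346 regions (4.85%) were higher and 423 (5.76%) were lower, so the lower share was smaller than over all regions. The median difference was 4.18 percentage points at members and −0.40 over all regions. Against wild-type livers alone, 114 were higher and 194 lower, beside 175 and 1059 of all 16931 regions. Without on tumour 4 the balance at members turned, with 466 higher and 310 lower, beside 925 and 1149 of all regions. The RNAPII list of on tumour 4 covered 40.9 Mb, the least of the RNAPII lists.

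Over the Myc sites themselves polymerase was more often higher than lower in tumours. Of 8928 members tested this way, 361 (4.04%) were higher and 164 (1.84%) lower, against 3.26% and 5.61% of all 23326 Myc regions tested. The larger number was higher in each fit that left out 1 library and against the wild-type livers alone. In the latter, 255 members were higher and 76 lower, beside 566 and 834 of all 23326 Myc regions.

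The 3 RNAPII regions at members with the largest increases had next to none in control liver. The region chr2:25226973-25241493 was covered to 96.7%, 94.6%, 81.2% and 90.3% in on tumours and to 0% in all 4 control livers (difference 90.7 ± 13.8 points, limma SE, adjusted p = 0.000236). In off tumours it was covered to 0%, 6.23% and 0%. The region chr8:13334869-13383440, which holds 2 members, was covered to 87.4% to 98.8% in on tumours, to at most 14.6% in control livers, and to 0%, 0% and 12% in off tumours. Both were thus without most of their RNAPII again after shutdown. At chr4:107106670-107112619, covered to 80.2% to 98.9% in on tumours and 0% in control livers, off tumours had 47.5%, 46.8% and 0%.

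The largest decreases were long regions covered almost wholly in normal liver. chr2:58605085-58650371 was covered to 97.9%, 96.6%, 99.2% and 99.1% in control livers and to 0%, 2.73%, 0% and 0% in on tumours (difference −97.5 ± 13.5 points, adjusted p = 0.000196). H3K4me3 covered 12.5% to 22.7% of it in control livers and none in on tumours. chr3:137871088-137907953 and chr5:28357252-28384489 had 93.8% to 100% in control livers and at most 11.8% in on tumours. In off tumours these 3 regions stayed at 0% to 29.5%.

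Counting peaks alone, 151 members (1.67%) had RNAPII in none of 4 control livers and all 4 on tumours, against 1.31% of the 38418 Myc regions of 2 or more tumours. The opposite was seen at 73 members (0.805%), against 2.85%. Of the 151, 41 had RNAPII in no off tumour and 41 in all 3, and 96 were also among the 315 members (3.48%, against 6.21% of all Myc regions) that had H3K27ac in no control liver and in all 4 on tumours. H3K4me3 was called at 95.4% to 97.4% of the 151 in on tumours. In control livers 1 to 4 it was called at 60.9%, 60.9%, 98.7% and 98.7% of them, against 94.3%, 92.3%, 98.2% and 98.9% of all members. The rule asks for H3K4me3 in at least 2 control livers, so these control values are a description. At the 73 members, H3K4me3 was called in 19.2% to 26% of cases in on tumours, and H3K27ac in 78.1% to 84.9% in on tumours. H3K27ac itself was present in 4 control livers and in no on tumour at 6 members (0.0662%, against 1.23%).

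For H3K27ac, 829 of 7386 regions at members (11.2%) were higher and 255 (3.45%) lower in on tumours, against 9.88% and 6.58% of all 16039 regions. This balance depended on which control livers were used: against wild-type livers alone 410 were higher and 595 lower, beside 827 and 2123 of all regions. Control livers 1 and 2, with a transgene, also had the shortest H3K27ac lists (72.9 and 90.5 Mb, against 147 and 153 Mb in control livers 3 and 4). Transgene and list length cannot be told apart. With lists cut to an equal length by score, 603 of 7121 regions at members (8.47%) were higher and 282 (3.96%) lower. The shares of all 12037 were 7.21% and 7.39%. Over the Myc sites themselves the balance was the same with either set of controls. Against all control livers, 728 of 8994 members (8.09%) were higher and 19 lower, beside 13.6% and 2.68% of all 31319 Myc regions. Against wild-type livers alone 516 were higher and 21 lower, beside 2387 and 693 of all Myc regions. Of the 728, 176 were also among the 361 members with more RNAPII, and none among the 164 with less. Those 176 were 24.2% of the first list and 48.8% of the second. Of the 19 with less H3K27ac, 9 were among the 164 (47.4% and 5.49% of the 2 lists). Over all 22145 Myc regions tested for both, 397 had more of both, 16.9% of the 2353 with more H3K27ac and 54.8% of the 725 with more RNAPII. Less of both was seen at 221, 36.8% of the 601 with less H3K27ac and 17.6% of the 1256 with less RNAPII. More H3K27ac with less RNAPII was seen at 16, 1.27% of the 1256. These overlaps are a description.

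The region chr9:114423776-114476948 showed the largest increase of H3K27ac, with 95.6%, 97.2%, 86.5% and 95.2% in on tumours and 0% in 4 control livers (difference 93.7 ± 7.94 points, limma SE, adjusted p = 4.08e-05). It remained covered to 96.0%, 96.5% and 95.1% in off tumours, and chr2:150467870-150503134, at 89.3% to 92.9% in on tumours and 0% in control livers, likewise kept 90.8% to 98.5%. The third, chr5:122497470-122501272, behaved otherwise, with 77.8% to 100% in on tumours and 0% in every control liver and every off tumour. Among the decreases, chr1:135104388-135157320 was covered to 82.9% to 98.0% in control livers and to at most 7.40% in on tumours, and had 38.0%, 94.7% and 69.6% in off tumours. chr7:38967139-38988787 and chr3:130310477-130325355 had 52.3% to 99.2% in control livers and 0% to 18.1% in on tumours.

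Shutdown of Myc was compared next, as off tumours against on tumours. These contrasts share the on tumours with those above, so the values of both are set side by side and no agreement between them is given. Over whole RNAPII regions at members, 218 of 7346 (2.97%) were higher and 110 (1.5%) lower in off tumours, against 2.43% and 1.09% of all regions. Over the Myc sites themselves the balance was the other way, with 55 of 8928 members (0.616%) higher and 173 (1.94%) lower, against 1.7% and 1.58% of all Myc regions. Lower members outnumbered higher ones in each fit that left out 1 library, but their number ran from 133 to 438, with the 438 obtained without off tumour 3. That tumour had the widest RNAPII list, at 146 Mb. In whole regions at members the balance turned without off tumour 3 (78 higher, 101 lower), whereas over all regions it did not (198 higher, 142 lower). By a narrow margin it also turned at members without on tumour 4 (147 higher, 151 lower), and so did all regions (293 higher, 361 lower).

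**Figure D4:**
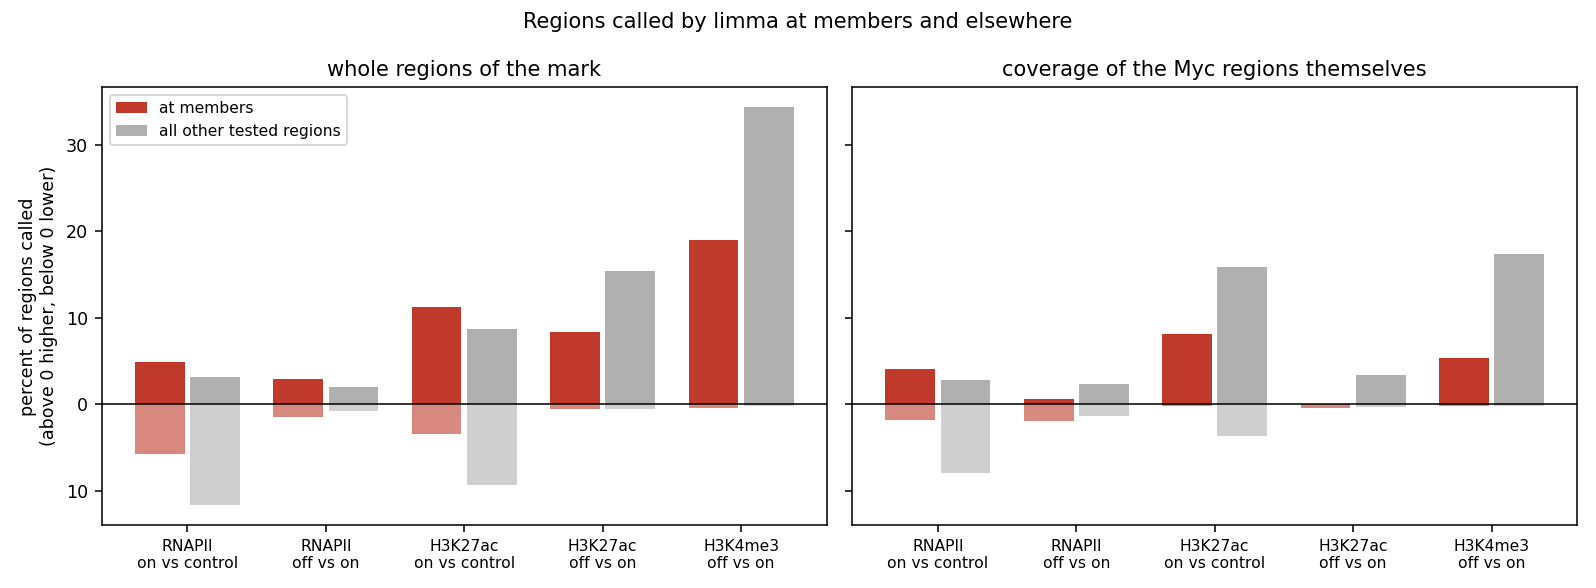
Percent of regions called by limma at an adjusted p below 0.05 (y axis, higher above 0 and lower below 0) at members and at all other tested regions, for 5 contrasts (x axis), fitted on whole regions of the mark (left) or on the coverage of the Myc regions (right). For H3K27ac in off against on tumours, 8.41% of whole regions at members are higher, and over the Myc sites 0.0334%.

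Among the RNAPII regions that were lower after shutdown, chr1:90152730-90176866, with 2 members, was covered to 91.4%, 94.7%, 93.2% and 95.9% in on tumours, to 0%, 0% and 10.4% in off tumours and to 15.9% to 40.5% in control livers (difference −90.3 ± 14.2 points, adjusted p = 0.00126). The other 2 were the chromosome 8 and chromosome 2 regions already named as higher in on tumours. Among those that were higher, chr17:12569379-12617357 was covered to 92.7% to 96.9% in control livers, to at most 5.85% in on tumours and to 91.8%, 92.2% and 99.0% in off tumours (difference 92.3 ± 11.5 points, adjusted p = 0.00043). Off tumours and control livers overlapped there. At chr11:61043641-61051774 on tumours had at most 10.1%, off tumours 97.1% to 99.9% and control livers 37.6% to 81.5%. At chr14:75641857-75685581 off tumours, at 94.6% to 100%, lay above both on tumours and control livers.

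In peak counts, RNAPII was called in all 4 on tumours and in no off tumour at 150 members (1.66%), against 0.989% of all Myc regions, and the reverse at 15 (0.166%), against 0.843%. Of the 150, 25 had H3K27ac in no off tumour and 61 in all 3. H3K4me3 was called at 96.0% to 98.0% of the 150 in off tumours. H3K27ac was in all 4 on tumours and in no off tumour at 39 members (0.430%, against 0.286%), and the reverse held at 7 (0.0772%, against 3.06%).

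H3K27ac after shutdown was compared over whole regions and over the Myc sites. Over whole regions at members, 621 of 7386 (8.41%) were higher and 40 (0.542%) lower in off tumours, against 12.2% and 0.505% of all regions, with a median difference of 12.3 percentage points. Over the Myc sites 3 of 8994 members (0.0334%) were higher and 34 (0.378%) lower, against 2.39% and 0.307%. In on tumours H3K27ac already covered, on average, 93.8% to 96.9% of a member's length, so little increase could be measured over the Myc sites. The plot of coverage around the core shows where the width was added: at the core centre H3K27ac covered 96.2% of members in on tumours and 94.0% in off tumours, at 2 kb 63.1% and 69.5%, and at 5 kb 32% and 43.0%. At 5 kb the ranges were 26.7% to 35.7% and 39.0% to 46.5% and did not overlap. Off-tumour H3K27ac lists covered 168 to 214 Mb and on-tumour lists 104 to 141 Mb. With lists cut to an equal length by score, 562 of 7121 regions at members (7.89%) were higher and 163 (2.29%) lower, against 9.47% and 1.72% of all 12037, with a median difference of 10.7 points at members.

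Among the H3K27ac regions lower after shutdown, chrX:16194996-16199133 had 87.7% to 100% in on tumours, 0% in 3 off tumours, and 54.2% in 1 control liver with 0% in the other 3 (difference −91.7 ± 14.0 points, adjusted p = 0.0011). chr1:191509702-191513678 had 96.7%, 90.3%, 91.7% and 81.0% in on tumours and 0% in all control livers and off tumours, and RNAPII there was 20.2% to 70.0% in on tumours, 0% in control livers and 0%, 0% and 23.0% in off tumours. The third is the chromosome 5 region named above. Higher after shutdown was chrX:47985743-47989950, with 0% in all control livers and on tumours and 100%, 83.1% and 83.8% in off tumours. At chr13:60598395-60617082 off tumours had 76.7% to 99.9% against 0% to 20.3%, and at chr2:164827360-164861052 58.5% to 98.6% against 5.73% to 10.9%.

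H3K4me3 at members was wider in off than in on tumours. Of 8417 regions at members, 1602 (19.0%) were higher and 31 (0.368%) lower, against 27.7% and 0.292% of all 19506, and over the Myc sites 487 of 9045 members (5.38%) were higher and 18 lower, against 11.8% and 0.203%. Off-tumour lists were longer, with 18502 to 19876 peaks against 14502 to 14942 in on tumours, and with lists cut to an equal length by score 782 of 8274 regions at members (9.45%) were higher and 21 lower, against 8.15% of all 14851, so the order of the shares at members and over all regions turned. The share of members with H3K4me3 was 92.7% to 94.3% in on tumours and 97.9% to 98.7% in off tumours.

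The largest H3K4me3 increase, at chr3:129588211-129591751, went from 0% in 4 on tumours to 93.6%, 98.4% and 99.4% in off tumours (difference 97.1 ± 11.0 points, limma SE, adjusted p = 4.65e-05), and control livers had 62.8%, 17.7%, 56.7% and 67.4%. chr11:101518730-101520686 and chr8:93900449-93906488 also had 0% in on tumours and 93.1% to 99.5% in off tumours, and both had H3K4me3 in control livers 3 and 4 only. At these last 2, H3K27ac covered the whole region in every tumour. The largest decrease, at chr17:39979799-39985933, went from 95.6% to 99.6% in on tumours to 0% in off tumours (difference −97.5 ± 4.28 points, adjusted p = 1.29e-06). This region stood apart in other ways, with Myc over 70.4% to 99.2% of it in the 4 control livers and over 5.09% to 98.7% in on tumours, RNAPII over 0% to 97.5% in control livers and 0% to 98.4% in on tumours, and no H3K27ac in any library. No list of artefact-prone regions was used, and whether it is one was not tested. The other decreases were partial: chr11:116936271-116943786 had 63.2% to 100% and then 30.7% to 32.9%, and chr5:100852284-100860264 had 92.6% to 98.8% and then 50.7% to 54.5%.

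A minority of members had no H3K4me3 peak in on tumours. In on tumours 8290 members (91.5%) had H3K4me3 in all 4 libraries, against 35.5% of all Myc regions, and 8283 (91.4%, against 35.3%) had it in the 3 off tumours as well. It was in none of the 4 at 389 members (4.29%, against 57.9%), and 190 of these (2.10% of members, against 4.58%) had it in all 3 off tumours. The reverse, 4 on tumours and no off tumour, was seen at 1 member (0.0110%, against 0.0338%). The 389 kept H3K27ac, called at 83.5% to 95.9% of them in control livers, 87.9% to 96.9% in on tumours and 94.9% to 97.9% in off tumours. For the 8290 these ranges were 66.9% to 91.5%, 95.1% to 97.9% and 89.5% to 96.7%. In control livers H3K4me3 was itself called at 58.9%, 40.9%, 82.0% and 88.2% of the 389, against 97.1%, 96.3%, 99.5% and 99.8% of the 8290. RNAPII was called at 76.6% to 92.8% of the 389 in control livers, 31.1% to 61.4% in on tumours and 43.2% to 72.8% in off tumours. For the 8290 the RNAPII ranges were 90.8% to 94.0%, 95.1% to 97.5% and 85.0% to 94.7%. None of the 389 had a Myc peak in any off tumour, but only 2.78% of all members had one in at least 1.

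RNAPII and H3K27ac were called more widely at members with higher Myc scores. Members were split into 4 equal groups by their median tumour percentile, and RNAPII in on tumours was called at 84.2%, 92.8%, 96.3% and 98.3% of the lowest to the highest group (means of 4 libraries). In the highest group on tumours ranged from 97.5% to 98.8%, control livers from 92.9% to 95.8% and off tumours from 88.0% to 96.4%, so the on tumours lay above both. In the lowest group the ranges overlapped, at 78.7% to 86.3%, 83.0% to 88.9% and 74.3% to 87.3%. H3K27ac in on tumours was called at 91.2%, 96.3%, 98.0% and 99.4%, and Myc in off tumours at 0.294%, 0.324%, 0.838% and 3.85%. Between the lowest and the highest group, mean shares also rose in control livers. RNAPII went from 85.4% to 94.7% there, H3K27ac from 76.3% to 84.5% and Myc from 9.28% to 28.6%. In off tumours RNAPII rose from 78.9% to 91.8% and H3K27ac from 91.0% to 95.9%.

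RNAPII calls over the Myc sites were also counted in the 4 groups, from the lowest to the highest scores. Against control liver, 84, 68, 92 and 117 members (3.85%, 3.04%, 4.09% and 5.18%) were higher, beside 3.26% of all Myc regions tested. Lower were 71, 46, 32 and 15 (3.25%, 2.06%, 1.42% and 0.665%), beside 5.61%. After shutdown 32, 28, 44 and 69 (1.47%, 1.25%, 1.95% and 3.06%) were lower, beside 1.58%. Higher were 16, 17, 18 and 4 (0.733%, 0.761%, 0.799% and 0.177%), beside 1.7%. Of these 4 series only the lower calls against control liver fell at every step. The mean difference of coverage in the highest group was 9.44 points for on tumours against control liver and −7.49 points for off against on tumours. Longer members are over-represented in the highest group, where the median length was 2645 bp against 1661 bp in the lowest, and the part of length was not tested.

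**Figure D5:**
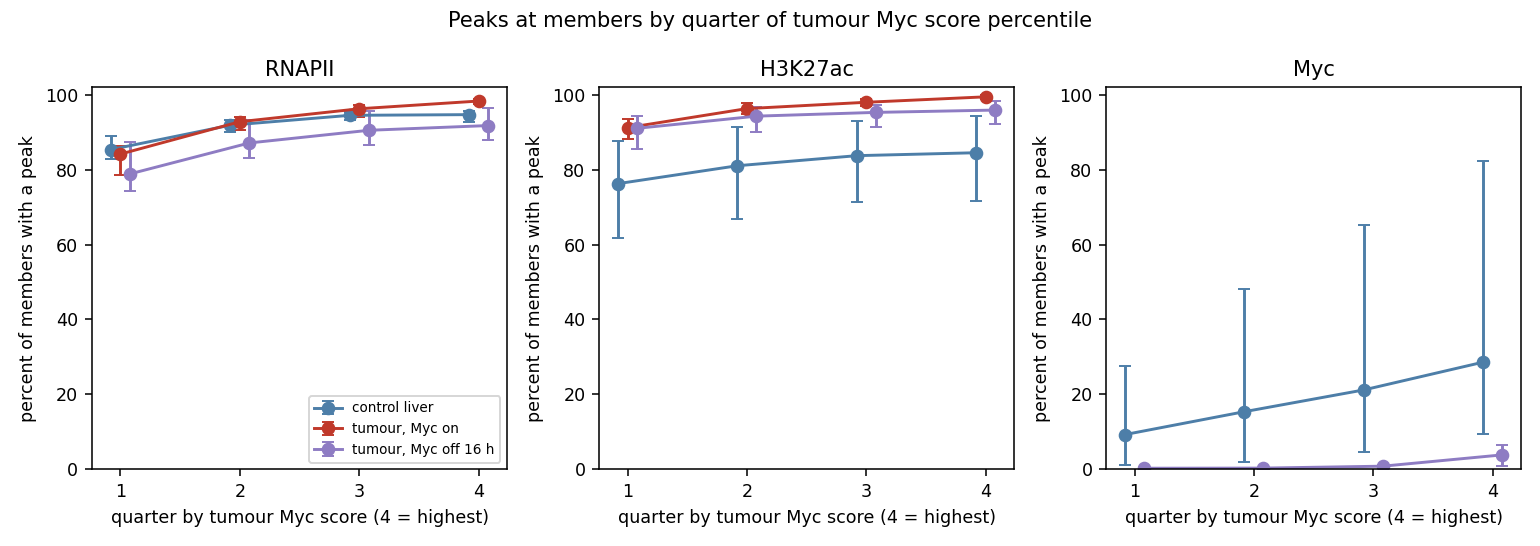
Percent of members with a peak (y axis) for RNAPII, H3K27ac and Myc by group of the members' median tumour Myc score percentile (x axis). Points are group means and bars run from the lowest to the highest library. RNAPII in on tumours is at 84.2% in the lowest and 98.3% in the highest group, where it lies above control livers and off tumours.

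Just outside the rule, 1686 regions at control H3K4me3 had a Myc peak in 5 of 6 tumours. They were shorter, at a median of 1388 bp, with RNAPII at 76.7% to 83.6% in control livers and 71.4% to 80.7% in on tumours. Of the members, 340 met the H3K4me3 limit with exactly 2 livers, and 266 constant regions missed it with exactly 1. RNAPII in control livers was called at 47.9% to 58.2% of the former and 51.1% to 71.1% of the latter.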

How the data were processed

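ChIP-seq peak lists of 46 of 47 samples were used, and the input was not analysed here. Groups and numbers came from titles, tissue and genotype labels. Per the submitters' processing notes, tools included BWA 0.6.2 and SAMtools, with build mm9. Myc lists hold the authors' score per peak, on an unstated scale, and the histone lists a deposited whole-number score and inner blocks. The deposited RNAPII lists hold positions only. Callers, thresholds and control libraries are not known from the labels or headers, and each library had its own list.

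Peaks were merged at 1 bp of overlap with numpy 2.4.6 and pandas 2.3.3 (Python 3.11.15). Regions with a peak in at least 2 libraries entered a model on the percent of length covered, with limma 3.58.1 (R 4.3.3), 3 groups in the fit, no covariate and a mean-dependent prior variance. P-values were Benjamini-Hochberg adjusted over all regions tested, and the step was tested on simulated data. Standard errors of the named RNAPII differences were 11.5 to 16.3 points, so small differences were not detectable. Scores were compared by an exact sign-flip test over tumours (scipy 1.17.1). The members, classes and alternatives were chosen with earlier results of these data known. Named regions are the 3 with the largest called difference in each direction whose groups do not overlap, the 5 members of highest median percentile, the 3 longest, and 3 each with Myc in all off tumours or all control livers. Chromosome 18 and unplaced sequences were left out of named regions. Whole-region coverage is the main value, coverage of the Myc regions a second fit. Other alternatives were stricter scores, equal list lengths, stricter overlaps, a presence test, a replicate block, wild-type livers alone and leaving out each library.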

Additional observations from a re-analysis of the deposited data

Results flagged for a closer look

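Among 25 groups of 4 to 10 libraries, 1 library lay far from the others of its group by Dixon's ratio on both measures of Myc in control liver. Control liver 4 had a Myc peak at 55.8% of members and Myc peaks over 14.6% of the mean member's length, whereas control livers 1 to 3 lay between 4.35% and 7.38% and between 0.211% and 0.529%. Chance flags about 1 in 20 groups. Control liver 4 is one of the 2 wild-type livers. Its RNAPII, H3K4me3 and H3K27ac lists did not stand apart on the same measures.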

How the results depend on the processing

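Every direction and call of the named regions was kept in 372 refits, 330 of them without 1 library. These regions were chosen for the largest called differences between groups that do not overlap. Leaving out 1 library could therefore not turn a direction, and the refits say little about stability. Counts of called regions at members moved between settings. Against wild-type livers alone, RNAPII in on tumours against control livers fell to 308 from 779 by region, and to 331 from 525 over the Myc sites, while H3K27ac gave 1005 regions, 410 higher and 595 lower, in place of 829 and 255. With a stricter score, H3K27ac gave 247 regions in place of 1084, and 359 in place of 661 after shutdown. With lists of equal length, H3K4me3 after shutdown gave 803 in place of 1633. Over the Myc sites, H3K27ac after shutdown gave 37 and H3K4me3 505. Fisher's exact test on presence cannot go below a two-sided p of 0.0286 with these numbers of libraries, so its 0 calls in all 5 contrasts say nothing about stability; it had 179, 120, 261, 38 and 140 members' regions at an unadjusted p below 0.05 (RNAPII on against control, RNAPII off against on, the same pair for H3K27ac, and H3K4me3 off against on).

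Whether the replicate numbers pair the samples was not settled. Deviations from group means correlated at −0.0508 to 0.152 between same-numbered libraries and at −0.186 to 0.153 between differently numbered ones. These ranges overlap and cannot exclude a pairing. As a replicate block the replicate numbers gave 932 RNAPII regions on against control and 379 off against on, 999 and 405 for H3K27ac, and 968 for H3K4me3. Over the Myc sites the block gave 368, 135, 472, 32 and 339 in the same order.

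The RNAPII share of members with at least 50% of the member covered was 85% in on tumours, 79.7% in control livers and 79.2% in off tumours, and with lists of equal length by width 77.8%, 69.5% and 82.9%, so that off tumours came out highest. That cut takes more peaks from longer lists, so the order cannot be told apart from its effect. Myc was left in off tumours at 12 members with a stricter score and at 45 with at least 10% covered, and in control livers at 885 with a stricter score.

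Leaving out 1 library at a time gave these ranges. RNAPII regions on against control ran from 420 to 776, the lowest without on tumour 1, and over the Myc sites from 405 to 574. RNAPII off against on ran from 76, without off tumour 2, to 520, without off tumour 1, and over the Myc sites from 167 to 481. H3K27ac on against control ran from 704 to 1068 and from 480 to 802. H3K27ac off against on ran from 321, without on tumour 4, to 738, and from 40 to 69. H3K4me3 off against on ran from 864, without on tumour 3, to 1548, and from 276 to 566. The H3K27ac difference between classes ran from 3.10 to 6.75 points. The score difference ran from 8.17 to 11.8 percentile points, with an exact p of 0.0625, the smallest that 5 tumours allow. Members with Myc left in off tumours numbered 134, without off tumour 2, to 251, and those with Myc in control livers 1210, without control liver 4, to 5247. RNAPII shares ran from 92.5% to 93.8% in on tumours, 91.1% to 92.2% in control livers and 84.0% to 89.1% in off tumours. Leaving out 1 library cannot move a group mean by as much as the SD of that group. That these shares moved by less than the SD therefore says nothing about stability. Alternatives over the Myc sites other than the fit itself, and leaving out libraries for shares and Myc counts, were chosen after seeing the data. Depth cannot be read from peak lists.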
